A study of Mus musculus with 10 samples.

Results

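The Wnt ligands, their Frizzled and Lrp receptors, the secreted proteins that modify Wnt signalling and a small number of proteins tied to it were followed through lung RNA of mice exposed to house dust mite (HDM) extract, with or without nafamostat, a synthetic inhibitor of serine proteases. Members were chosen by a rule on gene symbols, set with earlier results of these data known. It took every target in the count files named as a numbered Wnt, Frizzled (Fzd), R-spondin (Rspo), Sfrp or Dickkopf (Dkk) gene. It also took Lrp5, Lrp6, Lgr4, Lgr5, Lgr6, Wif1, Frzb, Porcn, Wls, Axin2, Lef1, Prickle1 and Prickle2. The rule took 53 of the 23930 gene targets in the series, among them 19 Wnt genes and 9 Frizzled genes. The tissue was the upper portion of the left lung lobe of female wildtype BALB/c mice of 8 to 9 weeks, with 1 library per mouse. The histology methods instead have right lobes frozen for gene analysis. The methods place lung function 24 h after the last instillation and lung collection after it, and give no separate time for the sequenced lobes. The HDM+Nafamostat group (n = 3) received intranasal Dermatophagoides pteronyssinus extract 2 times a week, for 3 weeks by the labels and methods although figure legends give 6 weeks, with nafamostat injected intraperitoneally 30 min ahead of each dose (20 mg/kg, dissolved in PBS that held 3% acetic acid). The HDM group (n = 3) received the same extract, and the PBS group (n = 4) received intranasal PBS. The methods list HDM and HDM with vehicle as separate groups, and legends of the lung function and histology figures have control mice given PBS only. The sequenced groups are labelled HDM and PBS. No source used here says whether those mice were also injected with the nafamostat vehicle, so nafamostat and its vehicle cannot be told apart. No group analysed here received nafamostat without HDM.

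Wnt proteins are secreted lipid-modified ligands that bind Frizzled receptors. With the co-receptors Lrp5 or Lrp6 they stabilise β-catenin, which drives transcription with Tcf and Lef factors, and without these co-receptors they act on cell shape and polarity. In the lung, Wnt2 and Wnt2b are needed for the organ to form, Wnt7b and Wnt5a act in growth and branching, and in the adult lung Wnt signals from fibroblasts help to keep the progenitor state of a subset of alveolar type 2 cells.

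Libraries held 8053532 to 9666354 counts with HDM+Nafamostat, 7105946 to 9354416 with HDM and 5901279 to 7353792 with PBS. Each gene was read by a single amplicon, so levels in CPM (counts scaled to library size with TMM factors) compare 1 gene between mice and were not used to rank genes against each other. Markers of lung epithelium and endothelium were abundant in every library. Some libraries stood apart by olfactory receptor genes, known mainly from nasal epithelium, which summed to 416 CPM in HDM+Nafamostat replicate 2, 1649 CPM in HDM replicate 3 and 619 CPM in PBS replicate 2, against 28.3 to 257 CPM in the other 7 libraries. Liver markers (7 of 8 on the panel) summed to 84.2, 162 and 29.6 CPM with HDM, against 0.817 to 28.9 CPM with PBS, and 6 of 6 tested rose. With HDM+Nafamostat they summed to 1.65, 94.2 and 3.89 CPM, and 1 of 6 tested fell against HDM. The part of this RNA in the Wnt results was not tested. HDM replicate 3 and HDM+Nafamostat replicate 2 were left out together as an alternative, and every library, PBS replicate 2 included, was left out on its own.

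The comparison of HDM with PBS asked how the Wnt genes of the lung differed after repeated allergen exposure. Of the 53 members, 39 had the 30 summed counts needed for a test, and of these 17 were lower and 2 were higher in HDM lungs at an adjusted p under 0.05 (edgeR's quasi-likelihood test, Benjamini-Hochberg over 14608 genes). Over all genes tested, 14.2% were called lower and 15.3% were called higher. At a change of at least 2-fold the members counted 11 lower and 2 higher, where 4.1% and 7.28% of all genes passed. The median log2 fold change of the tested members was −0.58, against 0.02 over all genes tested. In 20 members every HDM value lay below every PBS value and in 2 every HDM value lay above (17.2% and 19.3% of all genes). By role, the lower members were 4 of 11 ligands tested, 5 of 9 receptors, 2 of 7 secreted inhibitors, 2 of 6 R-spondins and their receptors, the acyltransferase Porcn, the transcription factor Lef1 and both Prickle genes. Since the RNA came from whole tissue, fewer cells of a type and less RNA per cell cannot be told apart in any of these values.

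**Figure D1:**
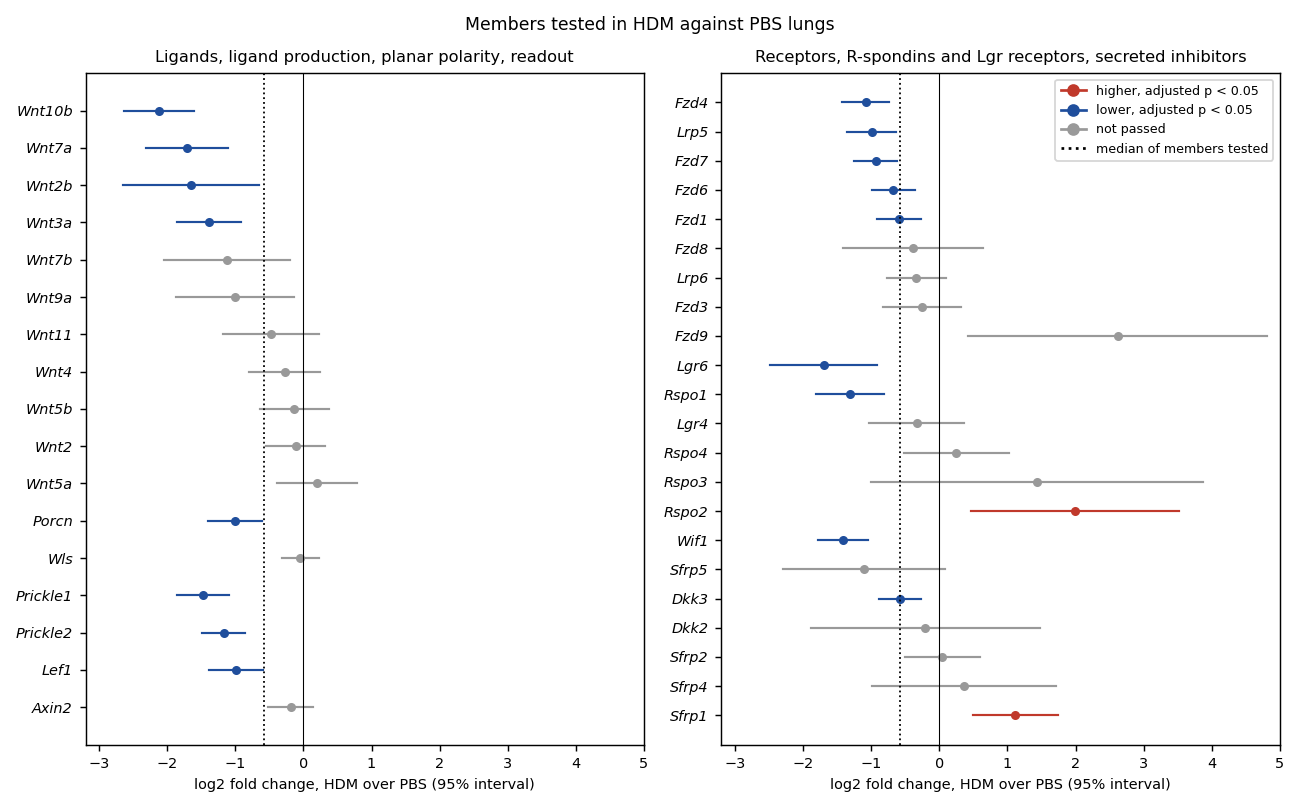
Log2 fold change of HDM over PBS with its 95% interval for each Wnt member tested, grouped by role (edgeR, 3 HDM and 4 PBS mice). Of the 39 members shown, 17 passed as lower, with Wnt10b at the lowest value of −2.12, and 2 passed as higher, Sfrp1 and Rspo2.

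Among the ligands, Wnt10b, an activator of β-catenin signalling known for favouring bone over fat formation, had 3.01, 4.67 and 4.24 CPM in the HDM mice, against 14.7, 19.6, 19.2 and 14.5 CPM in the PBS mice. The groups were far apart, and the log2 fold change was −2.12 (SE 0.24, edgeR adjusted p = 1.34e-05), where SE is the standard error of the fit. Wnt7a, which sets dorsal identity in the limb bud, had 4.39, 3.11 and 7.82 CPM with HDM, against 14.1, 19.3, 18.8 and 13.9 CPM with PBS. Its log2 fold change was −1.71 (SE 0.28, edgeR adjusted p = 0.000355). Wnt3a, the ligand most often used to activate the β-catenin pathway in culture, had 6.25, 8.48 and 5.57 CPM with HDM, against 19.1, 17.9, 18.4 and 14.3 CPM with PBS. Neither Wnt7a nor Wnt3a had overlapping groups, and Wnt3a had a log2 fold change of −1.39 (SE 0.22, edgeR adjusted p = 0.000231). Wnt2b, a mesenchymal ligand of the early lung, was low and uneven, at 3.59, 3.53 and 0.530 CPM with HDM, against 12.3, 4.94, 7.43 and 7.41 CPM with PBS. The lowest Wnt2b value came from HDM replicate 3 and the highest from PBS replicate 1, and the log2 fold change was −1.65 (SE 0.47, edgeR adjusted p = 0.0149). Without PBS replicate 1 Wnt2b no longer passed, at a log2 fold change of −1.38 and an edgeR adjusted p of 0.0554.

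The other 7 ligands tested did not pass. In 3 of them, Wnt7b, Wnt9a and Wnt4, all HDM values still lay below all PBS values, with edgeR adjusted p of 0.0649, 0.0772 and 0.434. Wnt2, the partner of Wnt2b in lung formation, averaged 19.2 ± 3.89 CPM with HDM and 20.6 ± 3.96 CPM with PBS (SD, n = 3 and 4), a log2 difference of −0.11 (95% interval −0.54 to 0.32, edgeR adjusted p = 0.710). Wnt5a, which signals mostly without β-catenin, averaged 7.38 ± 1.15 CPM with HDM and 6.36 ± 1.73 CPM with PBS (SD, n = 3 and 4). Its log2 difference was 0.19 (95% interval −0.39 to 0.78, edgeR adjusted p = 0.633), and those of Wnt5b and Wnt11, also known mainly for β-catenin-independent signals, were −0.14 and −0.48. The remaining 8 Wnt genes were not tested in any comparison: Wnt8a, Wnt8b and Wnt9b had 0 counts in all 10 libraries, and Wnt1, Wnt3, Wnt6, Wnt10a and Wnt16 had 2 to 36 counts summed over the 10.

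Several ligand genes lie in pairs in the mouse genome, and the partner of a tested gene was not always high enough to test. Wnt10b (chromosome 15, 98770712 to 98778206, GRCm38.p6 RefSeq, minus strand) lies 11650 bases from Wnt1, which had 7 counts in all. Wnt3a (chromosome 11, 59248036 to 59290751, minus strand) lies 16097 bases from Wnt9a, which averaged 2.06 ± 0.594 CPM with HDM and 4.04 ± 1.06 CPM with PBS (SD, n = 3 and 4). Wnt9a thus had separate groups like Wnt3a and the same sign, at an adjusted p that missed the threshold.

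A pair of proteins readies every Wnt for export. Porcn, the enzyme of the endoplasmic reticulum that attaches the lipid Wnts need for secretion and receptor binding, had 25.4, 21.2 and 21.6 CPM with HDM, against 39.4, 57.7, 48.8 and 34.8 CPM with PBS. The groups did not overlap, and the log2 fold change was −1.01 (SE 0.19, edgeR adjusted p = 0.000852). Wls, the carrier that takes the lipidated ligand to the cell surface, had 299.8, 279 and 288 CPM with HDM, against 307, 257, 309 and 307 CPM with PBS. Its groups overlapped, and the log2 difference was −0.05 (95% interval −0.31 to 0.22, edgeR adjusted p = 0.816).

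Of the receptors, Fzd4, which on endothelium also binds the non-Wnt ligand Norrin, had 36.2, 40.9 and 30.4 CPM with HDM, against 71.6, 85.6, 81.8 and 60.1 CPM with PBS. Fzd7, a receptor of stem and progenitor cells in several epithelia, had 33.8, 35.2 and 33.3 CPM with HDM, against 53.3, 74.5, 62.5 and 67.0 CPM with PBS. In both genes all 3 HDM mice lay below all 4 PBS mice, with log2 fold changes of −1.08 (SE 0.16, edgeR adjusted p = 0.000165) for Fzd4 and −0.93 (SE 0.15, edgeR adjusted p = 0.000253) for Fzd7. Lrp5, a β-catenin co-receptor best known for setting bone mass, had 78.4, 74.8 and 57.2 CPM with HDM, against 142, 158, 149 and 103 CPM with PBS, a log2 fold change of −0.99 (SE 0.17, edgeR adjusted p = 0.000408). Fzd6, which in mice patterns the hair coat, had 25.7, 26.6 and 23.1 CPM with HDM, against 44.4, 37.2, 37.9 and 38.9 CPM with PBS. Fzd1 had 30.9, 32.4 and 42.6 CPM with HDM, against 57.2, 53.0, 52.0 and 48.9 CPM with PBS. Neither of these genes had overlapping groups, and their changes were smaller than 2-fold, at −0.67 (SE 0.15, edgeR adjusted p = 0.00330) for Fzd6 and −0.60 (SE 0.15, edgeR adjusted p = 0.00758) for Fzd1. The second co-receptor, Lrp6, differed by −0.34 (95% interval −0.77 to 0.10, edgeR adjusted p = 0.241) and had overlapping groups. Fzd3 and Fzd8 did not pass, at −0.25 and −0.38, nor did Fzd9, whose log2 fold change of 2.62 had a 95% interval of 0.43 to 4.81 and rested on low counts that were highest in HDM replicate 3. Fzd10 was too low to test here, and Fzd2 had 0 counts in every library.

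The R-spondins amplify Wnt signals by binding the receptors Lgr4, Lgr5 and Lgr6 and so sparing Frizzled receptors from removal, and here 2 of the family differed in opposite directions. Rspo1 had 6.48, 10.7 and 6.90 CPM with HDM, against 21.6, 17.1, 23.6 and 15.9 CPM with PBS. Lgr6, which marks progenitor cells in skin and is also found in airway smooth muscle, had 2.89, 4.38 and 2.12 CPM with HDM, against 10.3, 13.7, 11.5 and 4.57 CPM with PBS. Both fell without overlap, with log2 fold changes of −1.31 (SE 0.23, edgeR adjusted p = 0.000670) for Rspo1 and −1.70 (SE 0.37, edgeR adjusted p = 0.00287) for Lgr6, although the lowest PBS value of Lgr6 lay close to the highest HDM value. Smooth muscle markers (5 of 6 on the panel) summed to 946 to 1120 CPM with HDM and 919 to 993 CPM with PBS. Rspo2, needed for limb, lung and tracheal development, was near the limit of detection, at 1.85, 3.39 and 4.64 CPM with HDM, against 0, 0.872, 0.896 and 1.42 CPM with PBS. Its groups were apart and its log2 fold change was 1.99 (SE 0.72, edgeR adjusted p = 0.0483), with a 95% interval of 0.46 to 3.52. The highest Rspo2 value was in HDM replicate 3, the library with the highest olfactory receptor sum, and the part of that library's other RNA in the result was not tested. The call was lost without HDM replicate 2, HDM replicate 3, PBS replicate 1, PBS replicate 2 or PBS replicate 3, at edgeR adjusted p of 0.121, 0.126, 0.0646, 0.0680 and 0.0840. Rspo3, Rspo4 and Lgr4 did not pass, with log2 fold changes of 1.43, 0.25 and −0.33, and Lgr5 had 10 counts in all 10 libraries together.

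Secreted inhibitors bind Wnt ligands or their co-receptors outside the cell. Wif1, which binds Wnts directly, had 12.4, 12.4 and 10.3 CPM with HDM, against 28.6, 29.5, 31.5 and 34.5 CPM with PBS. The groups were well apart and the spread within each was small, with a log2 fold change of −1.42 (SE 0.17, edgeR adjusted p = 2.51e-05). Dkk3, a divergent Dickkopf protein, had 34.5, 35.5 and 33.8 CPM with HDM, against 48.4, 53.8, 43.8 and 57.9 CPM with PBS, a log2 fold change of −0.58 (SE 0.14, edgeR adjusted p = 0.00737). Sfrp1, a soluble protein with a Frizzled-like ligand-binding domain, was the inhibitor that rose. It had 12.3, 8.91 and 12.3 CPM with HDM, against 6.86, 2.91, 4.10 and 6.62 CPM with PBS, without overlap, and a log2 fold change of 1.12 (SE 0.29, edgeR adjusted p = 0.00955). The related Sfrp2, Sfrp4 and Sfrp5 and the co-receptor blocker Dkk2 did not pass, with log2 fold changes of 0.04, 0.37, −1.11 and −0.21. Dkk1, Dkk4 and Frzb were not tested, with 6, 0 and 28 counts over the 10 libraries.

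The members that report on the pathway inside the cell gave different answers. Axin2, part of the complex that degrades β-catenin and a feedback target induced by β-catenin signalling in many tissues, had 38.3, 53.4 and 39.4 CPM with HDM, against 49.2, 49.7, 53.1 and 44.5 CPM with PBS. The groups overlapped, and the log2 difference was −0.19 (95% interval −0.52 to 0.14, edgeR adjusted p = 0.391). Lef1, a transcription factor that partners β-catenin and is itself a β-catenin target, had 17.2, 17.1 and 24.7 CPM with HDM, against 43.1, 33.8, 43.8 and 33.9 CPM with PBS. It fell, with a log2 fold change of −0.99 (SE 0.18, edgeR adjusted p = 0.000876) and no overlap between the groups. Lef1 is also expressed by T cells, whose listed markers (7 of 8 on the panel, each detected) summed to 195 to 332 CPM with HDM and 130 to 196 CPM with PBS, and of these 3 rose.

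Prickle1 and Prickle2 are cytoplasmic core proteins of planar cell polarity, the alignment of cells within a sheet that Frizzled receptors also direct. Prickle1 had 31.6, 20.5 and 22.9 CPM with HDM, against 76.1, 72.8, 70.8 and 55.0 CPM with PBS. Prickle2 had 42.6, 50.9 and 39.1 CPM with HDM, against 95.6, 106, 109 and 82.8 CPM with PBS. In both genes the groups were widely separated, with log2 fold changes of −1.47 (SE 0.18, edgeR adjusted p = 2.40e-05) for Prickle1 and −1.17 (SE 0.15, edgeR adjusted p = 3.91e-05) for Prickle2. Prickle2, Lef1, Rspo1, Fzd6 and Wnt2b overlap other annotated genes, on the opposite strand for Prickle2, Rspo1 and Fzd6, on the same strand for Wnt2b and on both for Lef1, and whether counting used strand is not stated, so reads of overlapping genes could not be separated for these members.

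**Figure D2:**
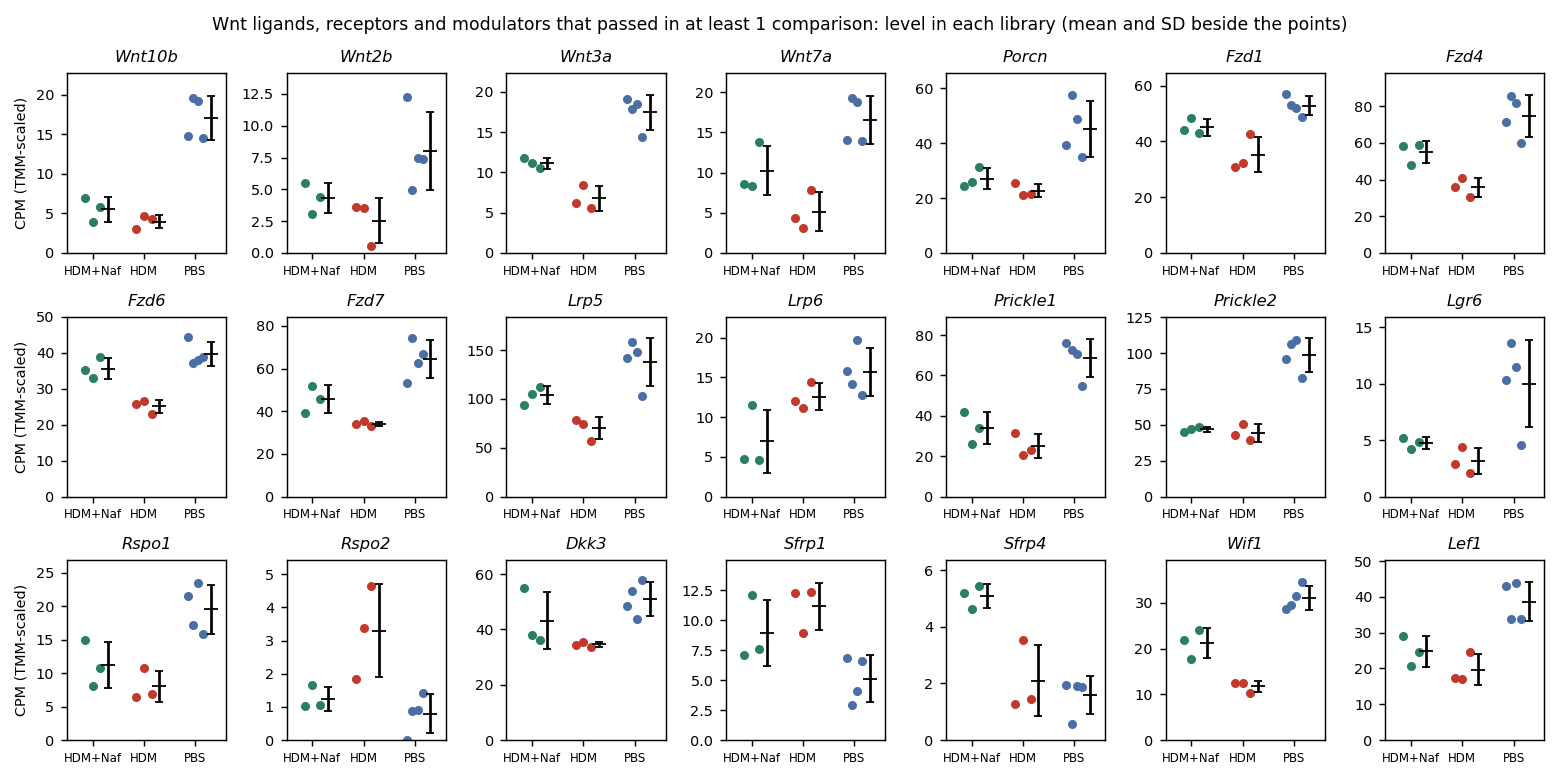
CPM of single mice (points) with the group mean and SD beside them (linear axes from 0) for the Wnt members that passed in at least 1 comparison, with HDM+Nafamostat, HDM and PBS from left to right in each panel. HDM and PBS points did not overlap in the 19 members that passed between these groups, and Wif1 shows HDM+Nafamostat points of 17.7 to 24.2 CPM between the HDM and PBS points.

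Because Tcf and Lef factors bind short motifs, the promoters of the members were read for them. The sequences came from RefSeq (GRCm38.p6), which gave a promoter for 35 of the 53 members, and the 250 bases before each start were searched on both strands for CTTTG followed by A or T and then again by A or T, a set of 4 motifs of 7 bases that differ only at their end. A match was found in 6 members with a promoter (17.1%), against 16.8% of 27025 genes, and in 3 of the 13 lower members that had one (23.1%). The windows of those 3 lower members, Fzd7, Lef1 and Prickle2, are shown because they are the only lower members with a match, 5′ to 3′ on the gene's strand with the match in capitals (on the reverse strand in Fzd7 and Lef1).
Fzd7, chr1:59482006-59482034, plus strand: tccacagagaaAACAAAGcgcgctattgg
Lef1, chr3:131156136-131156164, plus strand, at an internal start: caacctcagaaTACAAAGtaggattgcat
Prickle2 first match, chr6:92567513-92567541, minus strand, at an internal start: acatatgcttgCTTTGATgtcataaagga
Prickle2 second match, chr6:92567489-92567517, minus strand, same start: aaggaccacgcCTTTGTAgagcctttgtc
A match is a description of the letters and was not tested as a binding site. The window of Axin2 held none of the 4 motifs.

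Cell type markers moved alongside the Wnt members in the same libraries. Alveolar type 1 markers (7 of 8 on the panel) summed to 2470 to 2763 CPM with HDM, against 5184 to 5647 CPM with PBS, and 6 of 7 tested fell. Alveolar fibroblast markers summed to 2007 to 2775 CPM with HDM, against 4243 to 5531 CPM with PBS, and 8 of 8 fell. Endothelial markers summed to 2175 to 2422 CPM with HDM, against 3070 to 4352 CPM with PBS, and 4 of 8 fell, while mesothelial markers summed to 280 to 325 CPM with HDM, against 415 to 617 CPM with PBS, and 4 of 6 fell. Club and ciliated cell markers summed to 22053 to 25049 CPM with HDM, against 38096 to 45264 CPM with PBS, and 5 of 6 fell. In contrast, macrophage and eosinophil markers summed to 23050 to 29867 CPM with HDM, against 150 to 232 CPM with PBS, and 7 of 8 rose. No marker of these lists was at 0 in every library. Each sum weighs most the markers with the highest CPM, so it is not a count of cells. The part of these markers in the lower Wnt, Fzd, Rspo, Wif1, Porcn, Lef1 and Prickle levels was not tested.

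**Figure D3:**
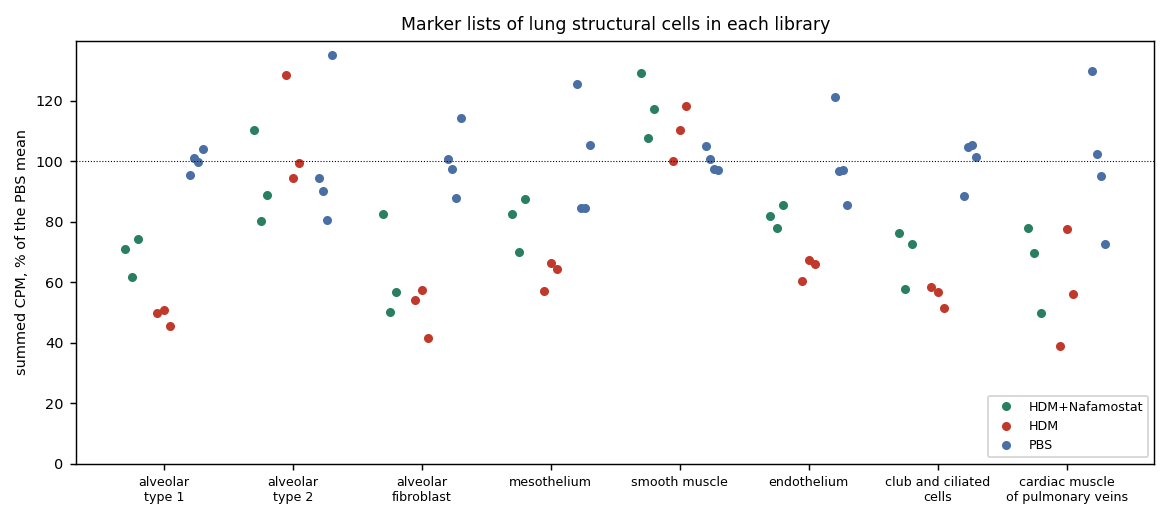
Summed CPM of each cell type marker list in every library, as a percent of the PBS mean, for 8 lists of lung structural cells, with HDM+Nafamostat, HDM and PBS points from left to right. All HDM points lay below all PBS points for alveolar type 1, alveolar fibroblast, mesothelial, endothelial and club and ciliated cell markers. They did not for alveolar type 2, smooth muscle or pulmonary vein cardiac muscle markers.

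The set was read beside 53 other genes of Wnt signalling, such as Dishevelled, Apc and Gsk3b and the glypicans, listed with earlier results of these data known. Of the 50 tested in HDM and PBS lungs, 19 were lower and 1 was higher, where 14.2% and 15.3% of all genes tested were called. The higher gene was Ror1, a Wnt5a receptor, named after its value was seen, and the median log2 fold change of the 50 was −0.53. The lower genes with the smallest p covered receptor, scaffold and feedback roles. Tnfrsf19, a receptor of the tumour necrosis factor family that Wnt signalling induces, had 33.3, 40.4 and 34.3 CPM with HDM, against 74.5, 78.9, 68.8 and 79.1 CPM with PBS, a log2 fold change of −1.08 (SE 0.14, edgeR adjusted p = 3.99e-05). Ptk7 and Ryk, which act as Wnt co-receptors, had log2 fold changes of −0.91 and −0.86. Daam1 and Daam2, formins that link Dishevelled to actin, had −0.61 and −0.94, and Bcl9l, a β-catenin co-activator, had −0.83. Znrf3, the ubiquitin ligase that removes Frizzled receptors and is held back by R-spondins, had −0.87. Gpc3, a glypican that binds Wnts and is also 1 of the alveolar fibroblast markers, had −0.98.

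The comparison of HDM+Nafamostat with HDM asked whether these levels differed when nafamostat was given with the allergen, and it shares its HDM libraries with the comparison of HDM and PBS. Of 40 members tested, 1 passed, Wif1, which was higher with HDM+Nafamostat, where 0.951% of all 14413 genes tested were called higher and 1.97% lower (edgeR, Benjamini-Hochberg). No member was called lower in this edgeR fit or by DESeq2. These counts moved with the processing: 3 members were higher with DESeq2, with library totals alone or with filterByExpr, and 5 with no filter beyond 1 count, while 1 was lower with no filter or without HDM+Nafamostat replicate 2. Wif1 had 21.8, 17.7 and 24.2 CPM in the HDM+Nafamostat mice, against 12.4, 12.4 and 10.3 CPM in the HDM mice, without overlap, a log2 fold change of 0.86 (SE 0.19, edgeR adjusted p = 0.0335), which is under 2-fold (0.104% and 0.729% of all genes were called higher and lower at 2-fold). With 3 mice a group, leaving out HDM+Nafamostat replicate 1 or 3 or any of the 3 HDM mice ended this call, at edgeR adjusted p of 0.0599, 0.178, 0.0715, 0.0589 and 0.114, while its log2 fold change stayed at 0.75 or more. All HDM+Nafamostat values lay above all HDM values in 12 members and below them in 3, against 12.6% and 12.9% of all genes tested.

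Some receptors and ligands had separate groups between HDM+Nafamostat and HDM but did not pass. Fzd4 had 58.0, 48.1 and 58.6 CPM with HDM+Nafamostat, against 36.2, 40.9 and 30.4 CPM with HDM, a log2 difference of 0.62 (95% interval 0.28 to 0.96, edgeR adjusted p = 0.0531). Lrp5 had 93.6, 106 and 112 CPM with HDM+Nafamostat, against 78.4, 74.8 and 57.2 CPM with HDM, a log2 difference of 0.56 (95% interval 0.25 to 0.88, edgeR adjusted p = 0.0550). Both missed the threshold narrowly. Fzd6 had 35.2, 32.9 and 38.8 CPM with HDM+Nafamostat, against 25.7, 26.6 and 23.1 CPM with HDM, a log2 difference of 0.50 (95% interval 0.17 to 0.84, edgeR adjusted p = 0.0864). Endothelial markers summed to 2803 to 3069 CPM with HDM+Nafamostat, against 2175 to 2422 CPM with HDM, and of 8 tested 2 rose and 1 fell. Alveolar type 1 markers summed to 3350 to 4042 CPM with HDM+Nafamostat, against 2470 to 2763 CPM with HDM, and 0 of 7 passed. The part of these markers in the Fzd4, Lrp5 and Fzd6 differences was not tested. Among the ligands, Wnt7a had 8.64, 8.36 and 13.8 CPM with HDM+Nafamostat, against 4.39, 3.11 and 7.82 CPM with HDM, and Wnt3a had 11.8, 11.1 and 10.5 CPM with HDM+Nafamostat, against 6.25, 8.48 and 5.57 CPM with HDM. Their log2 differences were 1.01 (95% interval 0.28 to 1.73, edgeR adjusted p = 0.107) for Wnt7a and 0.72 (95% interval 0.20 to 1.24, edgeR adjusted p = 0.108) for Wnt3a. Rspo2, which had been higher with HDM than with PBS, had 1.02, 1.65 and 1.05 CPM with HDM+Nafamostat, against 1.85, 3.39 and 4.64 CPM with HDM, a log2 difference of −1.39 (95% interval −2.57 to −0.22, edgeR adjusted p = 0.163).

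In other members the HDM+Nafamostat and HDM groups overlapped. Prickle2 had 45.0, 47.2 and 48.6 CPM with HDM+Nafamostat, against 42.6, 50.9 and 39.1 CPM with HDM, and its log2 difference of 0.09 (95% interval −0.23 to 0.41, edgeR adjusted p = 0.771) bounds a rise at well under 2-fold. Wls had 303, 285 and 273 CPM with HDM+Nafamostat, against 299.8, 279 and 288 CPM with HDM. Axin2 had 50.5, 43.5 and 60.9 CPM with HDM+Nafamostat, against 38.3, 53.4 and 39.4 CPM with HDM. The log2 differences were −0.01 (95% interval −0.27 to 0.25, edgeR adjusted p = 0.964) for Wls and 0.24 (95% interval −0.13 to 0.62, edgeR adjusted p = 0.448) for Axin2. Of the other 50 Wnt pathway genes tested, Gpc3 alone passed with HDM+Nafamostat, where 0.951% of all genes tested were called higher and 1.97% lower. Its log2 fold change was 0.55 (SE 0.14, edgeR adjusted p = 0.0466), close to the threshold, and its call was not followed through the alternatives. Summed alveolar fibroblast markers, Gpc3 among them, were 2420 to 3994 CPM with HDM+Nafamostat, against 2007 to 2775 CPM with HDM, and 2 of 8 rose. The part of these markers in the Wif1 and Gpc3 results was not tested.

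**Figure D4:**
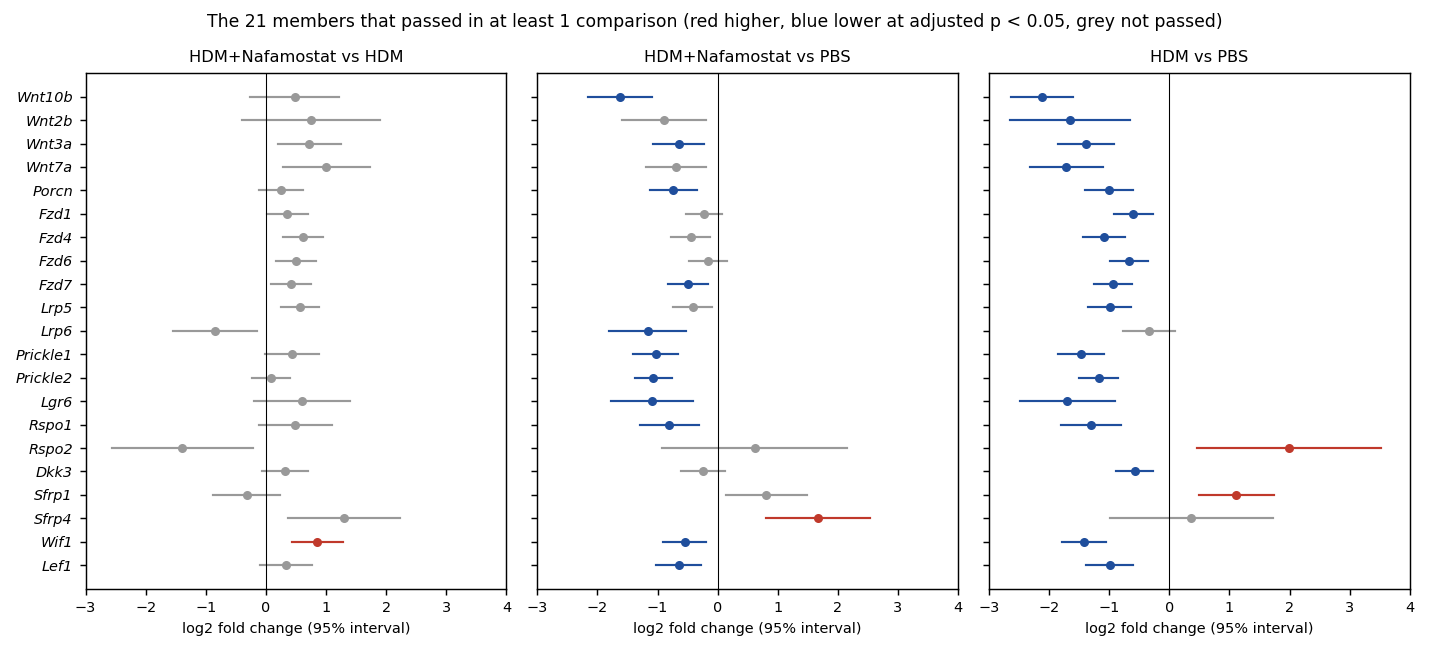
Log2 fold changes of the Wnt members that passed in at least 1 comparison, with 95% intervals, for HDM+Nafamostat over HDM, HDM+Nafamostat over PBS and HDM over PBS, with colour where the test passed and grey where it did not. The values of Wif1 were 0.86, −0.55 and −1.42 in that order. The comparisons share libraries, so their values are not independent of each other.

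The comparison of HDM+Nafamostat with PBS asked which Wnt genes still differed from unexposed lungs under treatment. Of 37 members tested, 11 were lower and 1 was higher (edgeR, Benjamini-Hochberg over 14079 genes), where 5.53% and 8.73% of all genes tested were called. At a change of at least 2-fold, 5 were lower and 1 was higher, against 1.14% and 4.62% of all genes. In 17 members every HDM+Nafamostat value lay below every PBS value and in 3 every one lay above (10.4% and 13.7% of all genes). Cell type markers moved in the same libraries. Alveolar type 1 markers summed to 3350 to 4042 CPM with HDM+Nafamostat, against 5184 to 5647 CPM with PBS, and 4 of 7 fell. Alveolar fibroblast markers summed to 2420 to 3994 CPM with HDM+Nafamostat, against 4243 to 5531 CPM with PBS, and 5 of 8 fell. Endothelial markers summed to 2803 to 3069 CPM with HDM+Nafamostat, against 3070 to 4352 CPM with PBS, and 5 of 8 fell, while macrophage and eosinophil markers summed to 17646 to 20392 CPM with HDM+Nafamostat, against 150 to 232 CPM with PBS, and 7 of 8 rose. Their part in the Wnt results was not tested. This comparison shares its PBS libraries with the comparison of HDM and PBS and its HDM+Nafamostat libraries with the comparison of HDM+Nafamostat and HDM. The lower members at 2-fold were Wnt10b, Lrp6, Lgr6, Prickle1 and Prickle2. Wnt10b had 6.99, 3.85 and 5.78 CPM with HDM+Nafamostat, against 14.7, 19.6, 19.2 and 14.5 CPM with PBS, a log2 fold change of −1.63 (SE 0.25, edgeR adjusted p = 0.000254). Prickle2 had 45.0, 47.2 and 48.6 CPM with HDM+Nafamostat, against 95.6, 106, 109 and 82.8 CPM with PBS, and Prickle1 had 41.7, 25.9 and 33.8 CPM with HDM+Nafamostat, against 76.1, 72.8, 70.8 and 55.0 CPM with PBS. Prickle2 and Prickle1 had log2 fold changes of −1.07 (SE 0.15, edgeR adjusted p = 6.82e-05) and −1.03 (SE 0.18, edgeR adjusted p = 0.000734). Lgr6 had 5.21, 4.18 and 4.83 CPM with HDM+Nafamostat, against 10.3, 13.7, 11.5 and 4.57 CPM with PBS, a log2 fold change of −1.08 (SE 0.32, edgeR adjusted p = 0.0315), and PBS replicate 4 lay within the HDM+Nafamostat range.

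The co-receptor Lrp6 passed here and in no other comparison, which by itself does not show that the comparisons differ. It had 4.70, 11.6 and 4.62 CPM with HDM+Nafamostat, 12.0, 11.2 and 14.5 CPM with HDM and 15.8, 14.1, 19.7 and 12.8 CPM with PBS. HDM+Nafamostat replicate 2 was close to the HDM mice and the other 2 treated mice were far below. That replicate also had the highest olfactory receptor sum of the treated mice, 416 CPM, and the part of that RNA in its Lrp6 value was not tested. The log2 fold change of Lrp6 against PBS was −1.16 (SE 0.30, edgeR adjusted p = 0.0149) and its log2 difference against HDM was −0.85 (95% interval −1.54 to −0.15, edgeR adjusted p = 0.152). Against PBS it no longer passed without HDM+Nafamostat replicate 1 or 3, at edgeR adjusted p of 0.0621 and 0.0874, and its log2 fold change was −1.75 without HDM+Nafamostat replicate 2. Sfrp4, a secreted Wnt-binding protein, was the member that rose, at 5.21, 4.62 and 5.46 CPM with HDM+Nafamostat, against 1.96, 0.581, 1.92 and 1.89 CPM with PBS, a log2 fold change of 1.67 (SE 0.41, edgeR adjusted p = 0.0109). Without HDM+Nafamostat replicate 3 its edgeR adjusted p was 0.0519. In HDM lungs Sfrp4 was at 1.27, 3.53 and 1.46 CPM, all below the HDM+Nafamostat values, with a log2 difference of 1.30 (95% interval 0.36 to 2.23, edgeR adjusted p = 0.107) for HDM+Nafamostat over HDM.

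The other 6 lower members against PBS changed by less than 2-fold. Their log2 fold changes were −0.80 (SE 0.23, edgeR adjusted p = 0.0279) for Rspo1 and −0.74 (SE 0.19, edgeR adjusted p = 0.0126) for Porcn. Wnt3a and Lef1 had −0.65 (SE 0.20, edgeR adjusted p = 0.0358) and −0.65 (SE 0.18, edgeR adjusted p = 0.0195). Wif1 had −0.55 (SE 0.17, edgeR adjusted p = 0.0402), with its HDM+Nafamostat values all below its PBS values, and Fzd7 had −0.50 (SE 0.16, edgeR adjusted p = 0.0443). Wnt10b, Prickle1 and Prickle2 passed in every alternative, while the other 9 each lost their call without at least 1 library, and each of the 3 HDM+Nafamostat and 4 PBS libraries ended at least 1 of these calls. The highest edgeR adjusted p over the alternatives was 0.0519 for Sfrp4 and 0.178 for Wif1, with the other 7 between them. The number of lower members was 6, 5 and 5 without HDM+Nafamostat replicates 1, 2 and 3 and 6, 7, 5 and 13 without PBS replicates 1, 2, 3 and 4. Among the other Wnt pathway genes, 6 of 50 tested were lower in HDM+Nafamostat lungs than in PBS lungs, where 5.53% of all genes tested were called lower.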

How the data were processed

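Lung RNA of 10 mice (3 HDM+Nafamostat, 3 HDM, 4 PBS) was read as targeted amplicon libraries (Ion AmpliSeq mouse transcriptome panel) on an Ion sequencer. The deposited files hold raw read counts per amplicon target, made by the authors with 1 target per gene and no normalization, although their methods name normalized values. The submitters' notes give the genome build mm10, and the settings of the aligner and counter are not given in the sources used here. The labels give the HDM dose in mg and ml and the methods in μg and μl, so no dose of extract is stated. Totals were 5901279 to 9666354 counts per library, and 27 gene symbols altered to dates in the files were restored from their amplicon identifiers. No 2 libraries were identical.

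Samples were grouped by their treatment label. Each pair of groups was tested on its own libraries with edgeR 4.0.16 in R 4.3.3 (TMM scaling, quasi-likelihood F test, Benjamini-Hochberg over all genes with at least 30 counts summed over the comparison), after the code had been tested on simulated data. A gene passed at an adjusted p under 0.05, and a 2-fold minimum was an alternative. Fold changes are log2 and run HDM over PBS, HDM+Nafamostat over HDM and HDM+Nafamostat over PBS, with standard errors and 95% intervals from the fit. Levels are CPM with TMM factors over the 10 libraries. Alternatives were DESeq2 1.42.0, other scaling, other filters, all groups in 1 fit, a replicate block, and leaving out libraries. P-values weigh a group difference against the spread between these mice, which is estimated for each gene with help from other genes. The methods name separate experiments, and the labels do not say which mice came from the same one. No term for experiment was in the fits.

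The members and the marker and pathway lists were chosen with earlier results of these data known. Every member could be named, with full statistics for those that passed in any comparison, and of the other Wnt pathway genes the 8 with the smallest p between HDM and PBS and any that passed between HDM+Nafamostat and HDM. Promoter sequences and gene positions are from RefSeq on GRCm38.p6, the assembly that mm10 stands for. The authors' own comparison tables were not used.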

Additional observations from a re-analysis of the deposited data

Results flagged for a closer look

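In the PBS group, which alone had 4 mice, the highest and lowest values of each of the 40 members tested were compared with the rest by Dixon's criterion, which chance alone meets in about 1 in 20 groups. Sfrp4 was 0.581 CPM in PBS replicate 2, where the other PBS mice had 1.89 to 1.96 CPM. Wls was 257 CPM in the same PBS replicate 2, where the other PBS mice had 307 to 309 CPM. PBS replicate 2 was also the PBS library with the highest olfactory receptor sum, 619 CPM, and the part of that RNA in these values was not tested.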

How the results depend on the processing

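Between HDM and PBS, 17 of the 19 members that passed did so in every alternative run other than the 2-fold minimum. Rspo2 and Wnt2b did not, and none of the 19 changed direction. Leaving out HDM replicate 3 and HDM+Nafamostat replicate 2 together removes 1 library from each comparison with PBS, so there it repeats the fit without that library alone. The count of lower members was 11 at 2-fold and 16 to 17 with 1 library left out, and that of higher members was 1 with library totals alone, 1 without HDM replicate 3 and HDM+Nafamostat replicate 2 together, and 1 to 3 with 1 library left out. Between HDM+Nafamostat and HDM, the count of higher members was 3 with library totals alone, 3 with DESeq2, 3 with filterByExpr, 5 with no filter beyond 1 count, 0 at 2-fold and 0 to 2 with 1 library left out, and that of lower members was 1 with no filter and 0 to 1 with 1 library left out. Between HDM+Nafamostat and PBS, 3 of 12 members passed in all alternatives, the count of lower members was 5 at 2-fold, 5 without HDM+Nafamostat replicate 2 (the joint setting), 7 without PBS replicate 2 and 5 to 13 with 1 library left out, and that of higher members was 0 to 1. The causes were not tested.

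Replicate numbers were not used as pairs in the main fits. Correlations of deviations from the group mean ran from −0.23 to 0.22 for same-numbered mice and from −0.22 to 0.29 for differently numbered mice. With so few mice a group, these values cannot show whether mice shared an experiment. With the replicate block, the count of higher members between HDM+Nafamostat and HDM was 0, and 13 members were lower between HDM+Nafamostat and PBS.

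Over all genes, HDM+Nafamostat against HDM gave 137 higher and 284 lower calls, against 416 and 561 with DESeq2, 522 and 749 with no filter, 10 and 75 with the replicate block, and 1 and 14 without HDM+Nafamostat replicate 3. Scaling by library totals alone put 41.9% rather than 52.0% of HDM against PBS calls on the higher side, and 51.8% rather than 32.5% of HDM+Nafamostat against HDM calls. Rspo2, Sfrp4 and Wnt2b averaged under 5 CPM in at least 1 group and rested on few reads there. Intervals from 3 or 4 mice were wide for them.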
